A study of Mus musculus with 18 samples.

Results

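Chemokines and their receptors were followed in the whole blood of irradiated mice. The members were the array probes whose gene name in the files is that of a Ccl, Cxcl, Ccr or Cxcr gene with a number, or Cx3cl1, Cx3cr1, Xcl1, Xcr1, Il8rb (now Cxcr2) or Blr1 (now Cxcr5), with Ccr7 left out. There were 68 such probes of 41174 on the array, for 51 genes, and 44 of them, for 37 genes, were called well above background by the scanner software on at least 5 of 18 arrays. The 37 genes are 13 of the 16 receptors and 24 of the 35 ligands. Files list Pf4 as Cxcl4, Ppbp as Cxcl7 and Ccl27a as Ccl27.

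Blood came from 18 male C57BL/6N mice of 8 to 12 weeks, each on an array of its own. The 7 mice at 0 Gy were sham treated, and 5 mice received 2 Gy and 6 mice 8 Gy of gamma rays from a cesium source, all with blood drawn by cardiac puncture 6 hours later. RNA was purified with the RiboPure kit in 5, 4 and 6 mice and with the PAXgene kit in 2, 1 and 0 mice at 0, 2 and 8 Gy, and globin RNA was removed. The labels say nothing of how mice were assigned to kits or slides. The p-values measure the spread between these arrays, which holds differences between slides and scan days as well as between mice.

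Chemokines are small secreted proteins that steer leukocytes along a gradient. They bind receptors that span the membrane and signal through inhibitory G proteins, and each leukocyte type carries its own set of receptors. In blood, the receptors are read mainly from the leukocytes themselves, while platelets store some ligands in their granules and many other ligands are made by cells of tissues.

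Levels are given as scaled log2 signal, the log2 of the processed signal minus the 75th percentile of that array, so 0 is the 75th percentile and a difference of 1 unit is 2-fold. Differences are limma estimates with the kit as a term, on the log2 scale with standard errors, and passed the test where the p adjusted by Benjamini-Hochberg over all 13267 genes was under 0.05. The 75th percentile of the signal was 138 to 425 intensity units at 0 Gy, 46.4 to 186 at 2 Gy and 58.4 to 232 at 8 Gy. On the scaled level, the lowest value called well above background was -4.90 to -2.94 by array at 0 Gy. It was -3.24 to -1.84 at 2 Gy and -4.17 to -2.05 at 8 Gy. The part of this floor in the differences of dim genes was not tested. The array labelled 0 Gy replicate 5, singled out after its values were seen, stood apart: its B cell marker level was -2.09 and its neutrophil marker level 2.00, against medians of 0.34 and -0.40 at 0 Gy. A marker level is the mean over a list of the log2 signal minus its mean at 0 Gy. The array is kept at 0 Gy as labelled, and results that rest on it are also given without it. Chemokine values were among those seen, so p-values and separations of groups without this array are descriptive and give no separate support. The array 8 Gy replicate 1, with a B cell marker level of -1.05, was not singled out in this way. The RNA is from a mixture of cells, so fewer cells of a type and less RNA per cell cannot be told apart.

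At 8 Gy against 0 Gy, 9 of the 37 genes passed, with 7 higher and 2 lower, beside 12% of all genes tested (7.64% higher and 4.31% lower). Of all genes called, 63.9% were higher, while the share was 46.0% after quantile normalization, 45.5% in the deposited table and 44.7% after normexp background correction, where 7, 7 and 9 members passed. The receptors Cxcr2 and Ccr1 and the ligands Ccl2, Ccl6, Cxcl10, Pf4 and Cxcl16 rose, and the B cell receptors Cxcr5 and Ccr6 fell. With quantile normalization, the deposited table and normexp, 1091, 1086 and 2048 of 13267 genes passed. Ccl6 and Pf4 passed in none of these settings, while Cxcl2 and Cx3cl1 passed with normexp. The median difference of the 37 genes was 0.54, against 0.08 over all genes. At 2 Gy against 0 Gy, 0 of the 37 genes passed in limma, while 8 had an unadjusted p under 0.05, and 0.0528% of all genes passed (0.0301% higher and 0.0226% lower). At 8 Gy against 2 Gy, 0 of 37 passed, with 5 at an unadjusted p under 0.05, and 0% of all genes passed. Leaving out 1 array at a time gave 1 member (without 8 Gy replicate 4) to 14 members (without 0 Gy replicate 5) at 8 Gy, with 2 when 0 Gy replicate 1, 0 Gy replicate 2 or 8 Gy replicate 6 was left out, and 1 passed with the RiboPure arrays alone. Over all 13267 genes, 268 to 3026 passed on leaving out 1 array, and fewer passed with the RiboPure arrays alone as well. The all-gene count for each array left out is not given, apart from 0 Gy replicate 5. Without 0 Gy replicate 5, 14 members passed at 8 Gy (12 higher and 2 lower), beside 22.8% of all genes (15.5% higher and 7.3% lower), and 6 passed at 2 Gy (4 higher and 2 lower), beside 6.99% of all genes (4.12% higher and 2.86% lower). Over 36 alternative settings the 9 genes kept their sign, and the number of settings in which each passed was 33 for Ccr6, 29 for Ccr1, 25 for Ccl2, 23 for Cxcr5 and Cxcl16, 22 for Cxcr2, 17 for Ccl6, 16 for Cxcl10 and 13 for Pf4. Ccr6 was the only member that passed at 8 Gy whichever array was left out. The differences of the 37 genes at 2 Gy ran from -2.39 for Cxcr5 to 1.97 for Cxcr2. With slide, scan day or array brightness as a term, 0 members and 0 of all 13267 genes passed at 8 Gy in limma. The 9 genes kept their direction in these 3 fits, with sizes of 0.55 to 4.04, 0.68 to 2.84 and 0.61 to 3.14. On slide 3, the one slide with both doses (2 arrays at 8 Gy and 1 at 0 Gy), all 9 differed in the same direction, by 4.16 for Cxcr2 and -2.95 for Ccr6. On scan day 7 (8 Gy replicate 6 and 0 Gy replicate 5), 7 of 9 did, and Ccl2 and Cxcl10 were -0.19 and -0.24. Among RiboPure arrays all 9 did, from -2.71 for Cxcr5 to 3.25 for Ccl2. The part of slide, scan day and brightness in the differences was not tested beyond these values.

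**Figure D1:**
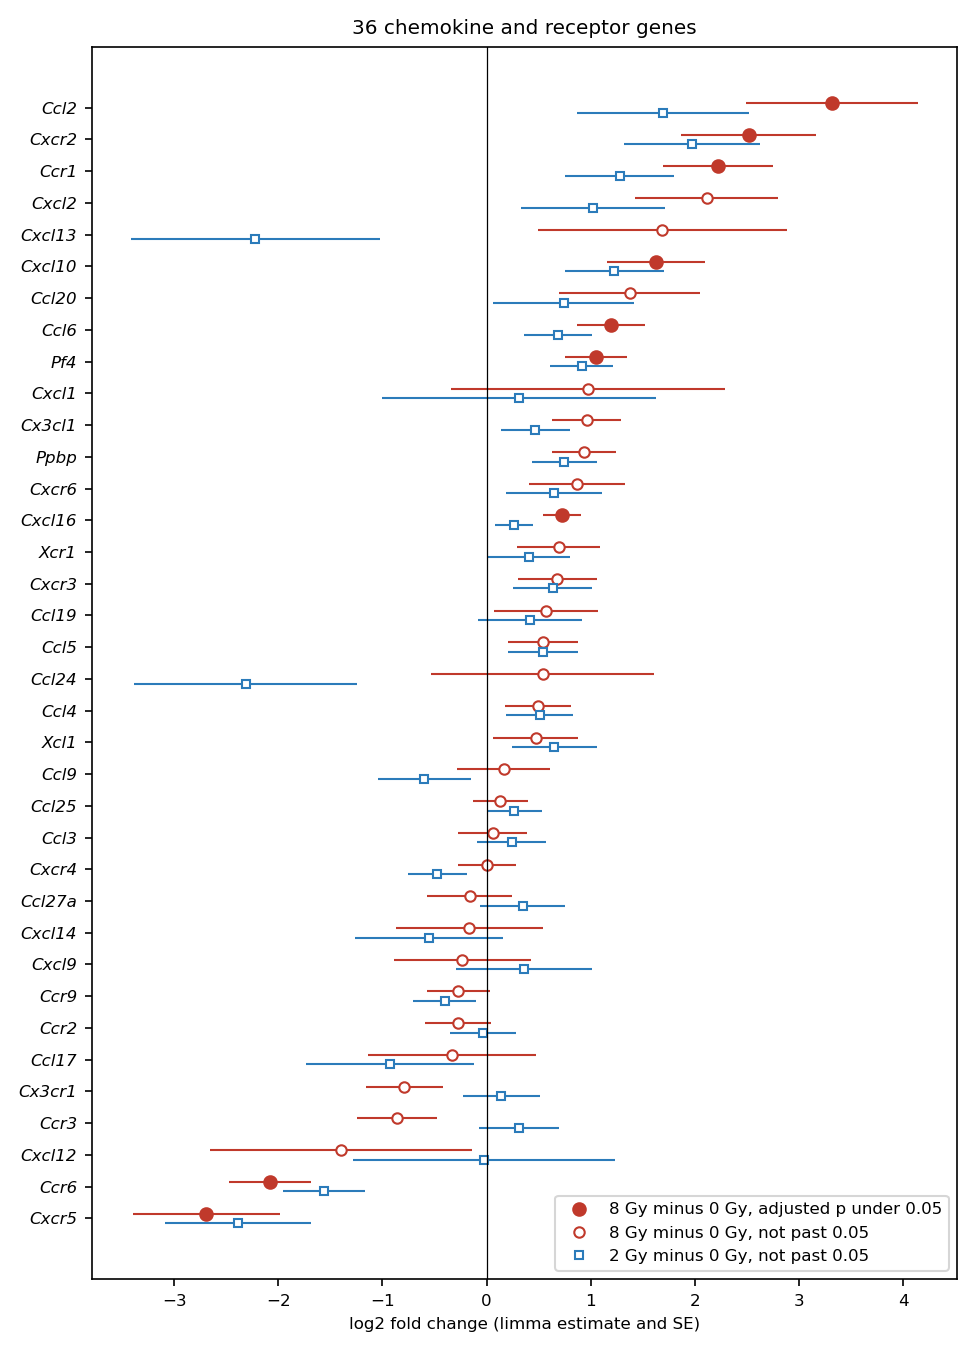
Log2 fold changes (x axis, limma estimate with its standard error) of 36 of the 37 genes (y axis) for 8 Gy minus 0 Gy (red circles, filled where the adjusted p was under 0.05) and 2 Gy minus 0 Gy (blue squares). Of these 36 genes, 9 have filled circles, from Ccl2 at 3.31 to Cxcr5 at -2.69, and 0 of them passed at 2 Gy.

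Among the receptors of neutrophils and monocytes, Cxcr2, which binds the ELR chemokines and brings neutrophils to sites of inflammation, rose at 8 Gy (probe at chr1:74402562-74402621 on mm7, plus strand). The Cxcr2 level ran from -0.31 to 2.66 at 0 Gy (median -0.01), was 3.51, 2.22, 0.63, 5.02 and 2.79 at 2 Gy, and ran from 2.29 to 4.25 at 8 Gy (median 3.69). All 6 arrays at 8 Gy lay above all 0 Gy arrays other than replicate 5, and the 2 Gy arrays overlapped both groups. The difference was 2.52 ± 0.65 at 8 Gy (5.72-fold; adjusted p = 0.0284 in limma) and 1.97 ± 0.65 at 2 Gy (adjusted p = 0.145). Without 0 Gy replicate 5, the 2 Gy difference was 2.28 ± 0.64 (adjusted p = 0.0448). The other Cxcr2 probe passed as well, with an adjusted p of 0.0241 where each probe was fitted as a feature.

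Ccr1, the receptor of Ccl3, Ccl5 and related ligands on neutrophils and monocytes, rose at 8 Gy too (chr9:123681859-123681918 on mm7, minus strand). Ccr1 spanned -4.13 to -0.51 in the 0 Gy arrays with a median of -3.07, read -0.93, -2.36, -1.43, -0.62 and -2.22 in the 2 Gy arrays, and spanned -1.41 to 1.24 in the 8 Gy arrays with a median of -0.38. The 8 Gy arrays lay above every 0 Gy array except replicate 5, and the probe was well above background on 4 of 7, 4 of 5 and 6 of 6 arrays at 0, 2 and 8 Gy. The difference was 2.22 ± 0.53 at 8 Gy (4.67-fold, limma adjusted p = 0.0216) and 1.28 ± 0.53 at 2 Gy (adjusted p = 0.198). Without 0 Gy replicate 5, the 2 Gy difference was 1.65 ± 0.45 (adjusted p = 0.0413). With normexp background correction the 8 Gy difference was 1.46 (limma adjusted p = 0.00541). Ccr1 did not pass at 8 Gy when 0 Gy replicate 2 or 8 Gy replicate 4 was left out.

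The 7 neutrophil markers S100a8, S100a9, Csf3r, Mmp9, Retnlg, Il1r2 and Trem1 all passed at 8 Gy, with a median difference of 2.31. Their marker level spanned -0.54 to 2.00 in the 0 Gy arrays, 0.52 to 3.09 in the 2 Gy arrays and 1.31 to 3.43 in the 8 Gy arrays. The 8 monocyte markers had 0 of 8 past the threshold, with a median difference of 0.32. The part of these cells in the rise of Cxcr2 and Ccr1 was not tested.

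**Figure D2:**
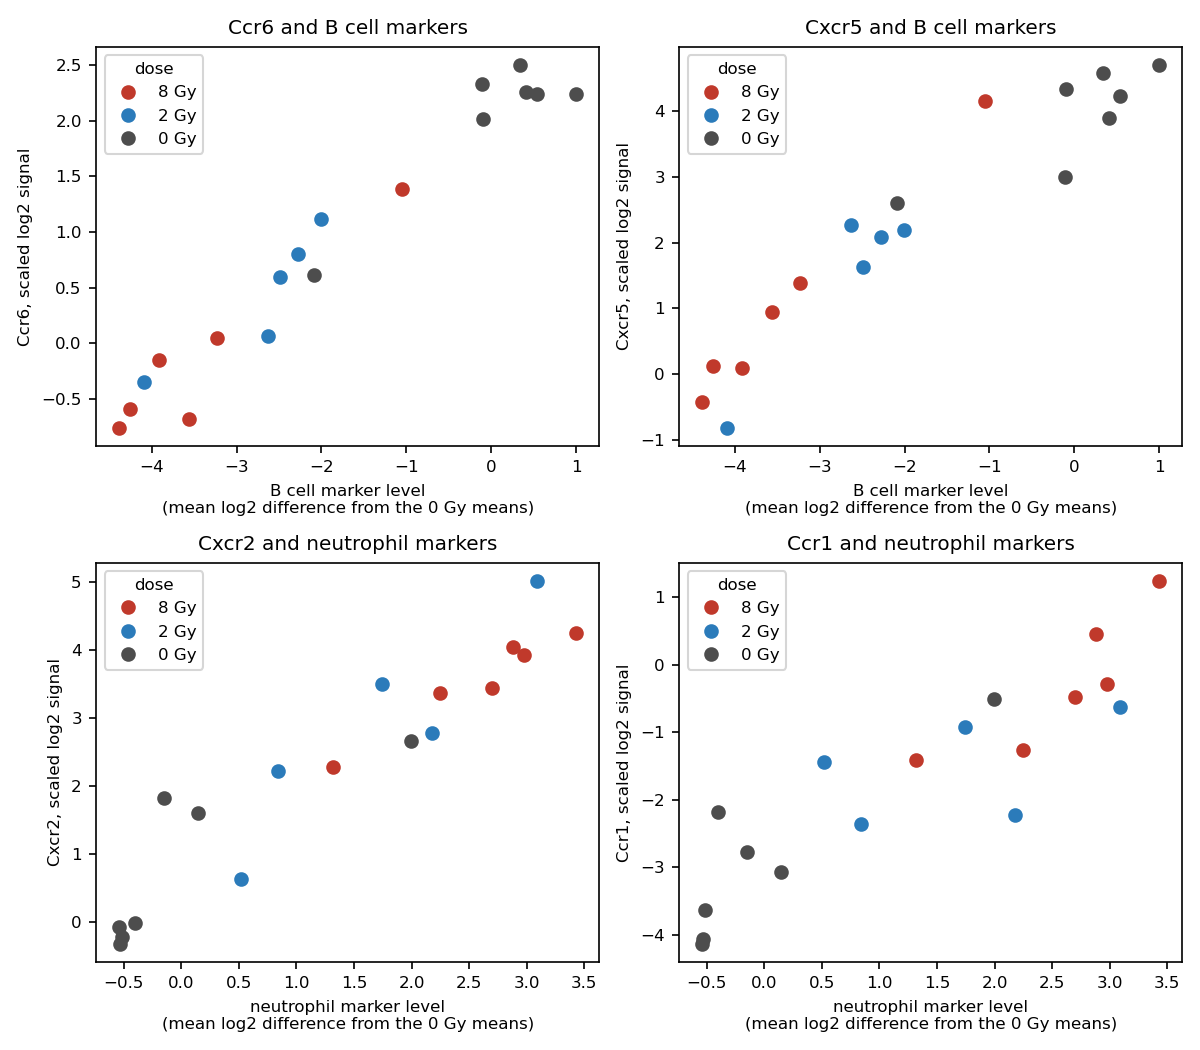
Scaled log2 signal of Ccr6, Cxcr5, Cxcr2 and Ccr1 (y axes) against the mean log2 difference of a marker list from its 0 Gy means (x axes; B cells for Ccr6 and Cxcr5, neutrophils for Cxcr2 and Ccr1), 1 point per array, coloured by dose. The 8 Gy arrays sit at B cell marker levels of -4.38 to -1.05 and neutrophil marker levels of 1.31 to 3.43.

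Ccr2 and Cx3cr1, receptors of monocytes, did not pass. Ccr2 had a median level of 3.12 in the 0 Gy arrays (range 2.16 to 3.78), levels of 4.12, 3.08, 2.56, 3.00 and 2.43 in the 2 Gy arrays, and a median of 2.91 in the 8 Gy arrays (range 1.98 to 3.60). Ccr2 binds Ccl2 and releases monocytes from bone marrow, and its doses overlapped throughout, with a difference of -0.28 ± 0.32 at 8 Gy (adjusted p = 0.567). Cx3cr1 spanned -1.42 to 0.43 in the 0 Gy arrays with a median of -0.32, read 0.78, 0.91, -0.63, -0.88 and -1.40 in the 2 Gy arrays, and spanned -1.57 to -0.29 in the 8 Gy arrays with a median of -1.0. Cx3cr1, the fractalkine receptor of patrolling monocytes, had a difference of -0.79 ± 0.37 (adjusted p = 0.143).

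Both B cell receptors fell. Cxcr5 binds Cxcl13 and guides B cells into lymphoid follicles (chr9:44446333-44446392 on mm7, minus strand). Cxcr5 had a median level of 4.24 in the 0 Gy arrays (range 2.61 to 4.70), levels of 1.63, 2.20, 2.27, -0.82 and 2.08 in the 2 Gy arrays, and a median of 0.53 in the 8 Gy arrays (range -0.43 to 4.15). All 5 arrays at 2 Gy lay below all 0 Gy arrays, and 5 of 6 at 8 Gy did, while 8 Gy replicate 1 stood within the 0 Gy span. Cxcr5 was -2.69 ± 0.70 at 8 Gy (6.45-fold lower; limma adjusted p = 0.0293) and -2.39 ± 0.70 at 2 Gy (adjusted p = 0.118, or 0.0447 without 0 Gy replicate 5).

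Ccr6, the receptor of Ccl20 on B cells and some T cells, fell at 8 Gy; its probe is on an unplaced stretch of chromosome 17 in the files. The Ccr6 level ran from 0.62 to 2.50 at 0 Gy (median 2.24), was 0.59, 1.12, 0.07, -0.35 and 0.81 at 2 Gy, and ran from -0.76 to 1.39 at 8 Gy (median -0.37). Apart from replicate 5 the 0 Gy arrays were closely grouped, and all 2 Gy and 8 Gy arrays lay below them. Ccr6 was -2.08 ± 0.39 at 8 Gy (4.22-fold lower; limma adjusted p = 0.00923), with a call under 33 of 36 alternatives, and -1.56 ± 0.39 at 2 Gy (adjusted p = 0.0859, or 0.0125 without 0 Gy replicate 5). The 8 B cell markers, Cd79a, Cd79b and Ms4a1 among them, all fell at 8 Gy, with a median difference of -3.40. Their marker level spanned -2.09 to 1.00 in the 0 Gy arrays, -4.09 to -2.0 in the 2 Gy arrays and -4.38 to -1.05 in the 8 Gy arrays. The part of B cell number in the fall of the receptors was not tested.

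**Figure D3:**
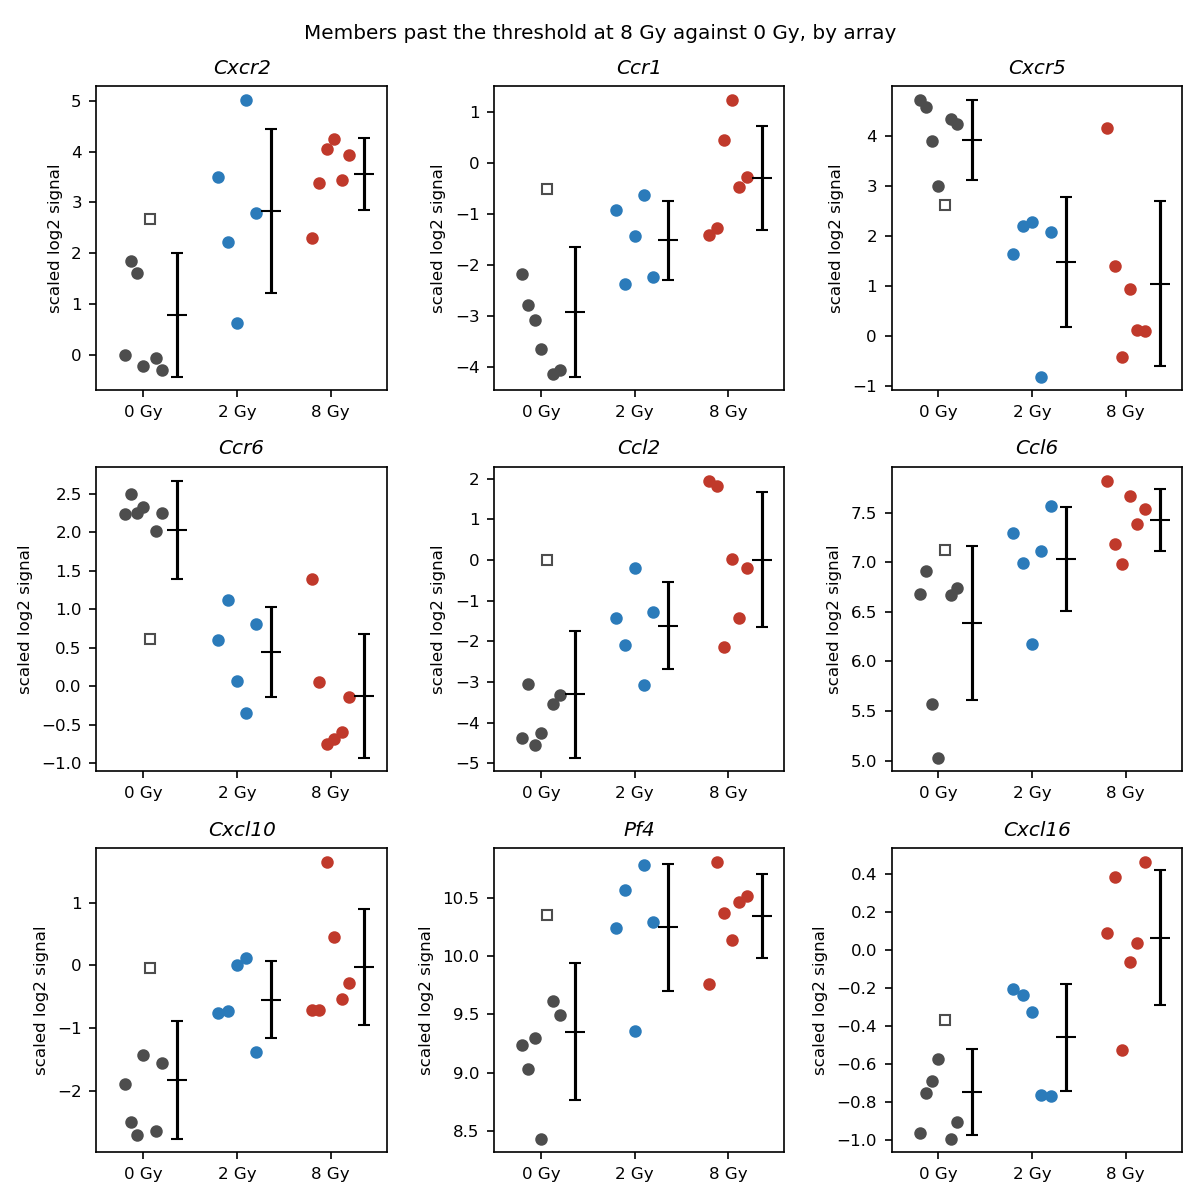
Scaled log2 signal (y axes) of the 9 genes past the threshold at 8 Gy against 0 Gy, 1 point per array at 0, 2 and 8 Gy, with the mean and SD as a bar (n = 7, 5 and 6). The open square is 0 Gy replicate 5, which for Ccl2 is at -0.01, above the other 0 Gy arrays (-4.54 to -3.05).

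The remaining receptors did not pass at 8 Gy. Ccr3, the eotaxin receptor of eosinophils, was -0.86 ± 0.38 (adjusted p = 0.131). Ccr3 spanned -0.33 to 1.82 in the 0 Gy arrays with a median of 0.32, read 1.41, 1.83, -0.08, -0.33 and 0.74 in the 2 Gy arrays, and spanned -1.42 to 0.33 in the 8 Gy arrays with a median of -0.62. At 8 Gy 5 of 6 arrays lay below all 0 Gy arrays, while replicate 1 and the 2 Gy arrays overlapped them. The eosinophil, basophil and mast cell markers had a median difference of 0.82 with 1 of 5 past the threshold, Il5ra, which fell. Their marker level had medians of -0.06, -0.41 and -0.39 at 0, 2 and 8 Gy. It spanned -0.73 to 0.69 in the 0 Gy arrays and -1.14 to 0.61 in the 8 Gy arrays. Of these 5 markers, 2 were well above background on all 18 arrays. Cxcr3, which binds Cxcl9 and Cxcl10 on activated T and NK cells, was 0.68 ± 0.38 (adjusted p = 0.223). Cxcr3 had a median level of 2.25 in the 0 Gy arrays (range 1.51 to 3.47), levels of 3.42, 3.36, 1.68, 3.01 and 3.39 in the 2 Gy arrays, and a median of 2.64 in the 8 Gy arrays (range 2.36 to 4.02). Cxcr6, the Cxcl16 receptor, was 0.87 ± 0.46 (adjusted p = 0.2). The Cxcr6 level ran from 1.50 to 3.87 at 0 Gy (median 2.44), was 3.65, 3.66, 1.79, 3.52 and 3.38 at 2 Gy, and ran from 2.14 to 4.42 at 8 Gy (median 3.02). Of the 8 T cell and 8 NK cell markers 0 passed at 8 Gy, with median differences of -0.20 and -0.01.

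Cxcr4, the Cxcl12 receptor that keeps cells in bone marrow, differed by 0.00 ± 0.28 at 8 Gy (adjusted p = 0.997). Cxcr4 spanned 1.49 to 2.64 in the 0 Gy arrays with a median of 2.27, read 1.50, 1.71, 1.02, 2.33 and 2.08 in the 2 Gy arrays, and spanned 1.65 to 2.72 in the 8 Gy arrays with a median of 2.27. Xcr1, the Xcl1 receptor of cross-presenting dendritic cells, differed by 0.69 ± 0.40 (adjusted p = 0.233). Xcr1 had a median level of 0.42 in the 0 Gy arrays (range -0.96 to 0.66), levels of 0.47, 0.53, -0.35, 0.74 and 0.53 in the 2 Gy arrays, and a median of 0.59 in the 8 Gy arrays (range -0.66 to 1.68). Ccr9, which directs lymphocytes to the gut, differed by -0.27 ± 0.30 (adjusted p = 0.558).

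Promoters of the 5 called genes with 1 entry in the RefSeq table (GRCm38.p6) are shown as the 250 bases before the transcription start. Capitals mark matches, on either strand, to the NF-kB letters (GGGA, any 4 bases, CC), the interferon response letters (TTTC, any 2 bases, TTTC) and the PU.1 letters (GAGGAAGT).
Cxcr2 (chr1:74153744-74153993, plus strand): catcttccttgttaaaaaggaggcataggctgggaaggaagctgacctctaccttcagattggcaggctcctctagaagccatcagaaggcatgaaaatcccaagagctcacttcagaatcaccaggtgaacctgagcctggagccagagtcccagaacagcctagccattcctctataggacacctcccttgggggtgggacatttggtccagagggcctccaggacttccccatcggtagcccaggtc
Ccr1 (chr9:123968693-123968942, minus strand): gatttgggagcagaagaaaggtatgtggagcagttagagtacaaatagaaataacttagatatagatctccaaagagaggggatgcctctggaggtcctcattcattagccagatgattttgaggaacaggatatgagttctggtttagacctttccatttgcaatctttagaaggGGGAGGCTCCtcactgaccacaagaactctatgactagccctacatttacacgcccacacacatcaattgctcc
Ccl6 (chr11:83593088-83593337, minus strand): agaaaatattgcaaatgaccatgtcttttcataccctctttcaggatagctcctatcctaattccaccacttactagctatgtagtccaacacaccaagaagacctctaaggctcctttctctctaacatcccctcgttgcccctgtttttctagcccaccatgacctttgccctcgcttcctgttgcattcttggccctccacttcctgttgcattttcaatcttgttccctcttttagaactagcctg
Cxcl10 (chr5:92348890-92349139, minus strand): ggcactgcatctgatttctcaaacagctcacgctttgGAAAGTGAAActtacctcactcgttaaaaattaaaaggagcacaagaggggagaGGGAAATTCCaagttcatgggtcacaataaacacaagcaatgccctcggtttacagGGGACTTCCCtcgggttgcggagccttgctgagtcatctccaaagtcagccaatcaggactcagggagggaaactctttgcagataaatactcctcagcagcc
Pf4 (chr5:90772185-90772434, plus strand): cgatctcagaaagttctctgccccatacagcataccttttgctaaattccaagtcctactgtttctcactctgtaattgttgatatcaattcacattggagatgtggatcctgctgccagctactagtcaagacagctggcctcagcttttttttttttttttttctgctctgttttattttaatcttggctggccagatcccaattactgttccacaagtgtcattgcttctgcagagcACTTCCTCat

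In all, 10 motifs were searched on both strands, and the 3 shown were picked after the search. Of 32851 promoters of this length, 17.6% held the NF-kB letters, 0.356% a stricter form (GGGA, any base, TTTCC), 2.98% the interferon response letters, 0.222% a stricter form (GAAA, any 2 bases, GAAACT) and 2.44% the PU.1 letters. The others were the GATA letters AGATAA (9.99%), the C/EBP letters TTGCGCAA (0.164%) and TTNNGNAA (36.8%), the p53 core CATG (53.9%) and the STAT letters TTCNNNGAA (7.02%). Each match to a stricter NF-kB, interferon response or C/EBP form is also a match to the looser one. Cxcl10 held the NF-kB letters at 2 places, 1 of them read on both strands, and the interferon response letters at the place of the stricter form. Ccr1 held the NF-kB letters once and Pf4 the PU.1 letters once, while Cxcr2 and Ccl6 held none of the 3 shown and matched CATG only. Of the 30 members with an entry, 12 held the NF-kB letters, 3 the interferon response letters and 2 the PU.1 letters. A member with more than 1 entry counts if any of them matched, while the shares above are per promoter, so they are not matched.

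Among the inflammatory CC ligands, Ccl2, the monocyte attractant that binds Ccr2, had the largest estimate of the 37 genes and rose at 8 Gy (chr11:82118723-82118782 on mm7, plus strand). The Ccl2 level ran from -4.54 to -0.01 at 0 Gy (median -3.55), was -1.42, -2.10, -0.21, -3.07 and -1.27 at 2 Gy, and ran from -2.15 to 1.95 at 8 Gy (median -0.09). Apart from 0 Gy replicate 5, every 0 Gy array lay below every 8 Gy array, and the probe was well above background on 4 of 7, 4 of 5 and 6 of 6 arrays. Ccl2 was 3.31 ± 0.82 at 8 Gy (9.93-fold; limma adjusted p = 0.0256) and 1.69 ± 0.82 at 2 Gy (adjusted p = 0.258). Without 0 Gy replicate 5, Ccl2 was 4.03 ± 0.70 at 8 Gy (adjusted p = 0.00188) and 2.31 ± 0.69 at 2 Gy (adjusted p = 0.053). Ccl2 did not pass at 8 Gy when 0 Gy replicate 1 or 2 or 8 Gy replicate 2, 4 or 6 was left out instead. With normexp background correction the 8 Gy difference was 1.54.

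Ccl6, a CC ligand of myeloid cells in mice, rose at 8 Gy (chr11:83658400-83658459 on mm7, minus strand). Ccl6 spanned 5.03 to 7.12 in the 0 Gy arrays with a median of 6.68, read 7.30, 7.00, 6.17, 7.11 and 7.57 in the 2 Gy arrays, and spanned 6.98 to 7.82 in the 8 Gy arrays with a median of 7.46. The 0 Gy arrays spread widely, with replicates 3 and 4 lowest, and 5 of 6 arrays at 8 Gy lay above all of them. Ccl6 was 1.19 ± 0.33 at 8 Gy (2.28-fold; limma adjusted p = 0.0344), and with normexp, quantile normalization or the deposited table it was 0.57, 0.65 and 0.64, with adjusted p of 0.288, 0.198 and 0.198.

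Ccl5, Ccl4, Ccl20, Ccl3 and Ccl9 did not pass. Ccl5 had a median level of 6.57 in the 0 Gy arrays (range 5.96 to 8.15), levels of 7.24, 7.68, 6.56, 6.98 and 7.90 in the 2 Gy arrays, and a median of 7.16 in the 8 Gy arrays (range 6.53 to 7.88). Ccl5, made by T cells, NK cells and platelets, differed by 0.54 ± 0.34 at 8 Gy (adjusted p = 0.273, or 0.0235 without 0 Gy replicate 5, the highest 0 Gy array). The Ccl4 level ran from 0.48 to 3.13 at 0 Gy (median 1.58), was 2.02, 2.32, 1.83, 1.86 and 2.91 at 2 Gy, and ran from 1.35 to 2.26 at 8 Gy (median 2.12). Ccl4 differed by 0.49 ± 0.32 (adjusted p = 0.291, or 0.0456 without it). Ccl20 spanned -4.74 to -1.86 in the 0 Gy arrays with a median of -2.42, read -3.32, -4.11, -2.54, -0.21 and -1.42 in the 2 Gy arrays, and spanned -3.62 to -0.25 in the 8 Gy arrays with a median of -1.77. Ccl20, the Ccr6 ligand, differed by 1.37 ± 0.68 (adjusted p = 0.166). Ccl3 differed by 0.06 ± 0.33 and Ccl9 by 0.16 ± 0.45, with adjusted p of 0.922 and 0.829.

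Cxcl10, an interferon-induced ligand of Cxcr3, rose at 8 Gy (chr5:92334002-92334061 on mm7, minus strand). Cxcl10 had a median level of -1.89 in the 0 Gy arrays (range -2.72 to -0.04), levels of -0.75, -0.73, 0.00, 0.13 and -1.38 in the 2 Gy arrays, and a median of -0.41 in the 8 Gy arrays (range -0.72 to 1.66). Both irradiated groups lay above the 0 Gy arrays other than replicate 5. Cxcl10 was 1.63 ± 0.47 at 8 Gy (3.09-fold; limma adjusted p = 0.0402) and 1.23 ± 0.47 at 2 Gy (adjusted p = 0.18, or 0.0446 without that array). Cxcl9, induced with it, was well above background on 5 of 18 arrays and differed by -0.23 ± 0.65 at 8 Gy (adjusted p = 0.834).

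The neutrophil-attracting ligands missed the threshold. The Cxcl2 level ran from -5.67 to -2.72 at 0 Gy (median -3.59), was -4.46, -4.49, -3.02, -2.20 and -1.11 at 2 Gy, and ran from -4.18 to -0.98 at 8 Gy (median -1.75). Cxcl2, a Cxcr2 ligand, lay above all 0 Gy arrays in 5 of 6 arrays at 8 Gy, and was well above background on 5 of 7, 1 of 5 and 5 of 6 arrays. It differed by 2.11 ± 0.69 at 8 Gy (adjusted p = 0.054, or 0.024 without 0 Gy replicate 5). Cxcl1 differed by 0.97 ± 1.31 (adjusted p = 0.635).

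Pf4, platelet factor 4, rose at 8 Gy (chr5:90744523-90744582 on mm7, plus strand). Pf4 spanned 8.43 to 10.36 in the 0 Gy arrays with a median of 9.30, read 10.24, 10.56, 9.35, 10.78 and 10.29 in the 2 Gy arrays, and spanned 9.76 to 10.81 in the 8 Gy arrays with a median of 10.41. The 8 Gy arrays all lay above the 0 Gy arrays other than replicate 5. Pf4 was 1.05 ± 0.30 at 8 Gy (2.07-fold; limma adjusted p = 0.0393) and 0.91 ± 0.30 at 2 Gy (adjusted p = 0.145, or 0.0248 without that array). The 8 Gy difference depended on the scaling: it was 0.20 with quantile normalization and with the deposited table and 0.42 with normexp, none of which passed (adjusted p = 0.511, 0.521 and 0.468).

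Ppbp, the precursor of a Cxcr2 ligand, did not pass. Ppbp had a median level of 8.97 in the 0 Gy arrays (range 8.19 to 9.80), levels of 9.68, 9.84, 8.66, 10.39 and 9.74 in the 2 Gy arrays, and a median of 9.86 in the 8 Gy arrays (range 9.14 to 10.34). It differed by 0.94 ± 0.31 at 8 Gy (adjusted p = 0.0558, or 0.0154 without 0 Gy replicate 5). Of the 7 platelet markers, Gp9 and Itgb3 passed, with a median difference of 0.99, and their marker level spanned -1.23 to 1.09 in the 0 Gy arrays, -0.23 to 1.51 in the 2 Gy arrays and 0.20 to 1.45 in the 8 Gy arrays. The part of platelets in the rise of Pf4 was not tested.

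Cxcl16, a transmembrane ligand of Cxcr6 that also takes up oxidized lipoprotein, rose at 8 Gy (chr11:70535852-70535911 on mm7, minus strand). The Cxcl16 level ran from -0.99 to -0.37 at 0 Gy (median -0.75), was -0.20, -0.24, -0.32, -0.76 and -0.77 at 2 Gy, and ran from -0.52 to 0.47 at 8 Gy (median 0.06). Of the 8 Gy arrays, 5 of 6 lay above all 0 Gy arrays. Cxcl16 was 0.72 ± 0.18 at 8 Gy (1.65-fold; limma adjusted p = 0.0271) and 0.26 ± 0.18 at 2 Gy (adjusted p = 0.416). The other Cxcl16 probe did not pass (adjusted p = 0.786 where each probe was fitted).

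Cx3cl1, the transmembrane ligand of Cx3cr1, was well above background on 2 of 7, 0 of 5 and 3 of 6 arrays at 0, 2 and 8 Gy. Cx3cl1 spanned -5.24 to -3.31 in the 0 Gy arrays with a median of -4.47, read -4.16, -4.36, -4.19, -3.91 and -3.51 in the 2 Gy arrays, and spanned -4.35 to -2.43 in the 8 Gy arrays with a median of -3.65. It differed by 0.96 ± 0.33 at 8 Gy (adjusted p = 0.0623). Xcl1, the ligand of Xcr1 from T and NK cells, differed by 0.47 ± 0.41 (adjusted p = 0.44). Xcl1 had a median level of -0.69 in the 0 Gy arrays (range -1.48 to 0.78), levels of 0.36, 0.74, -0.55, -0.49 and 0.71 in the 2 Gy arrays, and a median of -0.13 in the 8 Gy arrays (range -1.48 to 0.84).

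Ligands made mainly in tissues did not pass at either dose. Ccl17 differed by -0.33 ± 0.81 at 8 Gy, Ccl19 by 0.57 ± 0.50, Ccl25 by 0.13 ± 0.26, Ccl27a by -0.16 ± 0.41 and Cxcl14 by -0.17 ± 0.71, with adjusted p from 0.445 to 0.893. Cxcl13, the Cxcr5 ligand, differed by 1.69 ± 1.19 and Ccl24, an eotaxin, by 0.54 ± 1.07, with adjusted p of 0.337 and 0.76. The Cxcl13 level ran from -1.49 to 2.60 at 0 Gy (median 1.76), was -0.75, -4.35, 2.31, -3.77 and -0.19 at 2 Gy, and ran from -1.40 to 3.87 at 8 Gy (median 3.48). Ccl24 spanned -0.53 to 2.79 in the 0 Gy arrays with a median of 2.15, read 0.22, -2.76, 2.60, -2.97 and -1.42 in the 2 Gy arrays, and spanned -2.01 to 4.02 in the 8 Gy arrays with a median of 2.40. Both varied by several log2 units within each dose. Of the 2 Gy arrays, replicates 2 and 4 were lowest for both genes, and of the 8 Gy arrays replicate 3 was. At 0 Gy the lowest was replicate 7 for Cxcl13 and replicate 3 for Ccl24. The level of 7 markers of serous cavity macrophages was -3.29, -3.85 and -2.78 in these 3 arrays, and spanned -1.37 to 1.52 in the 0 Gy arrays, -3.85 to 0.71 in the 2 Gy arrays and -2.78 to 2.16 in the 8 Gy arrays. Those markers were listed after their values were seen, and the part of such cells was not tested.

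Cxcl12 had a median level of -2.88 in the 0 Gy arrays (range -5.21 to 1.75), levels of -3.84, -4.37, 3.75, -3.83 and -5.02 in the 2 Gy arrays, and a median of -3.85 in the 8 Gy arrays (range -4.64 to -1.97). Cxcl12, the Cxcr4 ligand, was highest in 0 Gy replicate 4 and 2 Gy replicate 3, the arrays in which the liver list, of which Ahsg and Fgb passed the filter, was 9.44 and 10.6 above its 0 Gy mean. Cxcl12 differed by -1.40 ± 1.26 at 8 Gy (adjusted p = 0.456). Without these 2 arrays, an alternative added after seeing the data, 9 members passed at 8 Gy as before, 7 higher and 2 lower, and 0 at 2 Gy. The share of all genes that passed without these arrays is not given, so these counts cannot be set against it.

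**Figure D4:**
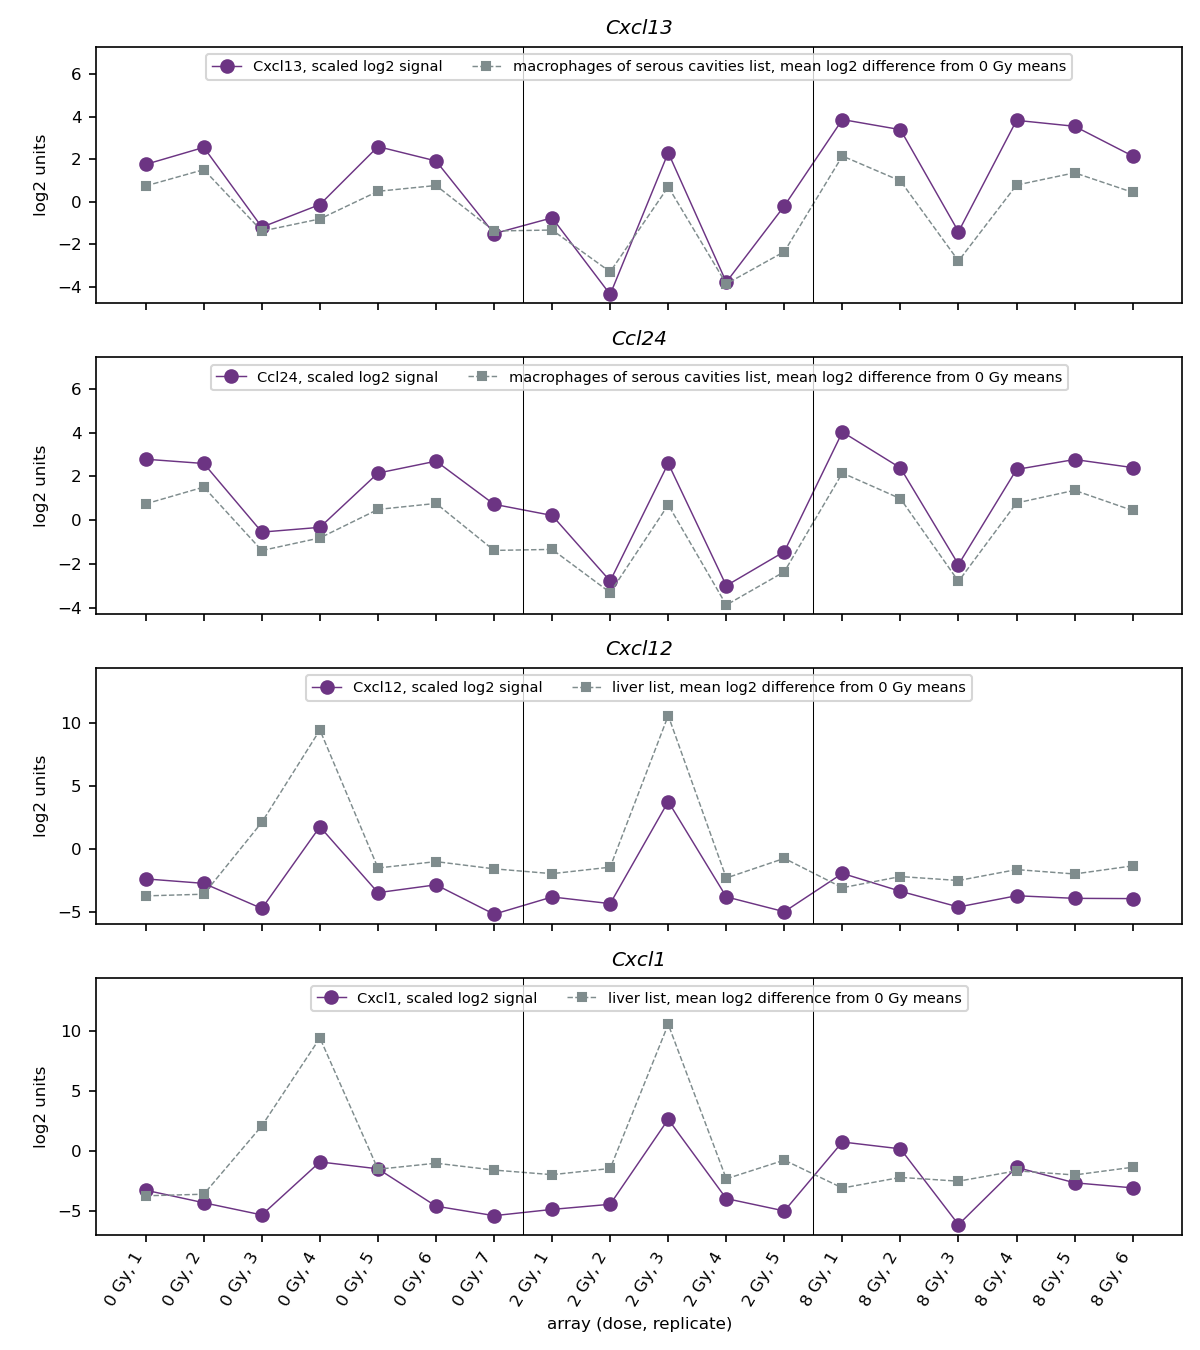
Scaled log2 signal of Cxcl13, Ccl24, Cxcl12 and Cxcl1 (circles) and the mean log2 difference of a marker list from its 0 Gy means (squares; serous cavity macrophages for the upper panels, liver for the lower ones) across the 18 arrays (x axis), with lines between doses. The lists were written after values were seen. Cxcl12 peaks in 0 Gy replicate 4 and 2 Gy replicate 3.

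The genes that act beside the chemokines were listed with earlier results known. Of 41 measured, 10 rose and 4 fell at 8 Gy, beside 7.64% higher and 4.31% lower of all genes tested. Their median difference was 0.62, against 0.08 over all genes, and 0 passed at 2 Gy, beside 0.0528% of all genes. Those that rose include the chemoattractant receptors Fpr2, Fpr1 and C5ar1, with differences of 2.74 ± 0.55, 2.54 ± 0.54 and 2.39 ± 0.46, the gelatinase Mmp9, also a neutrophil marker, with 2.31 ± 0.46, and the signalling regulators Rgs18 and Grk5, with 1.28 ± 0.34 and 0.98 ± 0.27. Those that fell were Dpp4, which trims chemokines, at -1.36 ± 0.27, the lymphocyte egress receptor S1pr1 at -1.22 ± 0.31, Rhoh at -1.08 ± 0.31 and S1pr4 at -0.99 ± 0.29. Markers of erythroid cells (6 measured), plasma cells (3 measured) and mesothelium (4 measured) had 0 past the threshold at 8 Gy. The mesothelium level was 3.07 and 1.98 in 8 Gy replicates 1 and 2, where Ccl2 was highest at that dose. It was -2.70 in 8 Gy replicate 3, where Ccl2 was lowest. In 8 Gy replicate 4 the mesothelium level was -0.78, with Ccl2 at 0.02. At 0 Gy, Ccl2 was highest in replicate 5, with a mesothelium level of 0.08. The mesothelium level was highest at 0 Gy in replicates 2 and 6 (1.73 and 1.20), where Ccl2 was -3.05 and -3.55. Of the 4 mesothelium markers, 0 were well above background on all 18 arrays. That list was written after values were seen, and the part of such cells in Ccl2 was not tested.

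The 14 genes under the filter included 7 with no array well above background: Ccl1, Ccl11, Ccl21c, Ccl22, Ccl8, Ccr4 and Cxcl11. Ccl28 reached 2 arrays (2, 0 and 0 at 0, 2 and 8 Gy) and Ccr10 reached 3 (2, 1 and 0). Cxcl15 reached 2 arrays, and Ccl12, Ccr8 and Cxcl5 reached 1. Ccl7, a monocyte attractant that also binds Ccr2, was well above background on 0 of 7, 0 of 5 and 3 of 6 arrays, and by its other probe on 0 of 7, 0 of 5 and 2 of 6. At the edge of the filter, Cx3cl1 and Cxcl9 had 5 arrays well above background, just inside it, and Ccl7 and Ccr10 had 3, just outside it.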

How the data were processed

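Whole-blood RNA of 18 mice was measured on Agilent 1-colour arrays. Per the file headers, the deposited processed intensity was background-subtracted and detrended; the submitters' processing notes name Agilent Feature Extraction 9.5.3.1 and limma, without a role. The deposited table of the series holds quantile-normalized intensities (column medians of 20.7), whose steps are not given in the sources used here. No member value was saturated.

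The deposited intensity was taken to log2, averaged over a probe's spots without those marked as outliers, and reduced by the array's 75th percentile over probes. The same percentile over spots of the linear signal was also run. The version over probes was kept because its gene counts came closest to those of an earlier analysis. Gene names were updated through RefSeq accessions and symbols, and names beginning with LOC were then set aside for the same reason. With either choice undone, 9 members passed at 8 Gy, as in the values reported.

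Probes well above background on at least 5 arrays were kept, and the one with the highest mean stood for its gene. limma 3.58.1 in R 4.3.3 fitted dose and kit to all arrays, with 2-sided tests. The script was tested on simulated data. Members, gene lists and tests were chosen with earlier results of these data known. Values by array are given for members past the threshold, the 12 next by unadjusted p at 8 Gy and a fixed set of receptors and ligands. Positions of probes are given on mm7, as in the files, and promoters are RefSeq sequences on GRCm38.p6. The values of 1 member, which enters the fits and counts, are not reported here.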

Additional observations from a re-analysis of the deposited data

Results flagged for a closer look

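In 108 groups of 1 gene at 1 dose, 14 values stood apart from the others of their dose by Dixon's criterion, which chance meets in about 1 in 20 groups (5.4 here). They lay on 6 arrays, 7 of them on 2 Gy replicate 3. The array labelled 0 Gy replicate 5 had Ccl2 at -0.01 (others -4.54 to -3.05) and Ccr6 at 0.62 (others 2.02 to 2.50). In 2 Gy replicate 3, Cxcl12 was 3.75, Cxcl1 2.64, Ccl25 0.38 and Ccl27a -0.91, above the other 2 Gy arrays, and Cxcr3 was 1.68, Cxcr6 1.79 and Xcr1 -0.35, below them. Cxcl12 was also 1.75 in 0 Gy replicate 4 (others -5.21 to -2.40). In 8 Gy replicate 3, Ccl24 was -2.01 and Cxcl13 -1.40, below the other 8 Gy arrays. Ccl17 was 0.11 in 8 Gy replicate 1 (others -4.37 to -3.25), and Cxcr5 was -0.82 in 2 Gy replicate 4 (others 1.63 to 2.27).

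Some genes under the filter gave a signal well above background after irradiation and on 0 of 7 arrays at 0 Gy. Ccl7 did so on 3 arrays at 8 Gy with one probe and on 2 with the other. Ccl12 and Cxcl5 each did so on 1 array at 8 Gy, and Ccr8 on 1 array at 2 Gy. Others went the reverse way: Ccl28 was well above background on 2, 0 and 0 arrays at 0, 2 and 8 Gy, and Ccr10 on 2, 1 and 0. How many of all probes show either pattern was not counted.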

How the results depend on the processing

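At 8 Gy against 0 Gy, 9 members passed. The count was 4 with no filter, 1 with RiboPure arrays, 0 with slide as a block (7 members at an unadjusted p under 0.05), 4 with slide as a random block (correlation 0.149), 0 with scan day (8 unadjusted), 0 with brightness (10 unadjusted) and 4 with the 2 doses compared alone, all in limma. Leaving out 1 array gave from 1 (8 Gy replicate 4) to 14 (0 Gy replicate 5). It gave 2 for 0 Gy replicates 1 and 2 and for 8 Gy replicate 6, 3 for 8 Gy replicate 5, 4 for 8 Gy replicate 2, and 5 for 0 Gy replicate 4 and 2 Gy replicate 5. At 2 Gy the count was 2 with normexp, and 0 to 6 on leaving out an array. At 8 Gy against 2 Gy it was 0 throughout. The labels give replicate numbers without saying whether they pair mice. Over 16 same-number pairs the deviations had a median correlation of 0.10 (-0.35 to 0.48). Over 91 pairs of different number the median was -0.02 (-0.52 to 0.68). These correlations cannot settle whether the mice were paired. With a replicate block 1 member, 238 genes and 4 pathway genes passed at 8 Gy and 67 genes at 2 Gy.

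Over all genes at 8 Gy (1586, 63.9% higher), 564 passed with no filter, 283 with RiboPure arrays, 0 with slide (1131 unadjusted), 596 with the random block, 0 with scan day (2461 unadjusted), 0 with brightness (1789 unadjusted) and 783 with the 2 doses alone, and 268 to 3026 on leaving out an array. The share higher was 46.0% of 1091 with quantile normalization, 45.5% of 1086 with the deposited table and 44.7% of 2048 with normexp. At 2 Gy (7 genes), 53 passed with normexp, 40 with quantile normalization, 19 with all probes, 47 with an intensity trend, 2 with the 2 doses alone, 0 with no filter, RiboPure arrays, slide, scan day or brightness (5636, 1603, 1788, 1842 and 802 unadjusted), and 0 to 927 on leaving out an array. Of the pathway genes at 8 Gy (14), 9 passed with quantile normalization, 9 with the deposited table, 6 with no filter, 5 with RiboPure arrays, 0 with slide, scan day or brightness (6, 13 and 14 unadjusted), 7 with the random block and 9 with the 2 doses alone, and 5 to 21 on leaving out an array. The cause of these changes was not tested.

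Alternatives added after seeing the data gave 9 members at 8 Gy: the percentile over spots (1594 genes, 967 higher), the files' own names (1712 genes), and without the 2 arrays high in liver transcripts (count over all genes not given). No called member changed sign under any alternative run. No member passed the threshold between kits in limma (lowest adjusted p = 0.0966, for Ccl4, PAXgene minus RiboPure 1.14 ± 0.36), with 3 PAXgene arrays.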
